A study of Arabidopsis thaliana with 18 samples.

Results

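FLOE1 (AT4G28300) lies on chromosome 4 of Arabidopsis thaliana, and the genes described here are the loci numbered AT4G28010 to AT4G28500 on either side of it. They were taken by locus number, and 61 of the 33602 identifiers in each of the authors' tables fell in this range, 34 upstream of FLOE1, 26 downstream and FLOE1 itself. In the TAIR10.1 reference they span 13930342 to 14084553, or 154 kb. A mean of at least 10 normalised counts in any table was reached by 34 genes, which are described below, and the other 27 include 12 that were listed at 0 in every table. AT4G28181 has no locus in the reference and so no distance.

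RNA was sequenced from seeds of a pair of complemented genotypes. The first (+WT) was complemented with an intact gene and the second (ΔDS) with a version that lacks the DS segment. As known from the study, this gene is FLOE1 and the recipient plants lack its function. Each genotype was taken as dry seeds, as seeds imbibed for 5 days at 4 °C in darkness and 4 hours in light at 22 °C without added NaCl, and as seeds treated in the same way with 220 mM NaCl, with 3 replicates in each of 6 groups. The labels do not say where the transgenes sit, whether a genotype is a single line, or whether replicates came from separate plants, so p-values measure the spread between these samples.

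FLOE1 encodes a protein that forms condensates in the embryo when the dry seed takes up water, and the DS segment is the part rich in aspartate and serine. In complemented plants the transcripts read at the FLOE1 locus can come from the transgene and from the resident gene, and reads of both map to the same place. Neighbouring genes in a plant genome are read from either strand, some pairs start from a common stretch between them, and some overlap on opposite strands.

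The tables give, for each gene, a mean over the 6 libraries of a seed state and a log2 fold change with its standard error (SE). Values per library were not used here, since the tables hold none. The order of the genotypes in the names was taken to mean that fold changes are ΔDS relative to +WT. If the order were the reverse, every direction here would turn. An implied mean of each genotype was derived from these values for 3 libraries per genotype, in normalised counts (read counts divided by DESeq2 size factors). A gene is called where the adjusted p of the authors' DESeq2 test is below 0.05, and is tested where such a p is given.

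**Figure D1:**
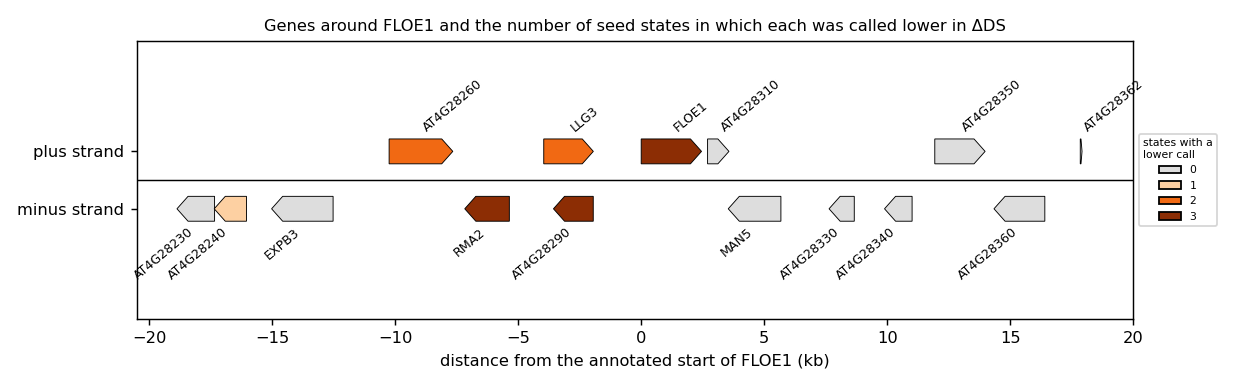
Genes within about 20 kb of FLOE1 by distance from its annotated start (x axis, kb) and by strand (y axis), with the point of each shape at the gene's end. Colour gives the number of seed states in which the gene was called lower in ΔDS. FLOE1, AT4G28290 and RMA2 were called lower in 3 states, LLG3 and AT4G28260 in 2, and no gene shown downstream of FLOE1 was called lower in any.

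The genes called in every state were FLOE1 and, on its upstream side, AT4G28290 and RMA2, with LLG3 lying among them. FLOE1 runs from 14014646 to 14017097 on the plus strand. AT4G28290, an uncharacterized gene from 14011080 to 14012697 on the minus strand, starts 1948 bases before FLOE1 and points away from it, so that both start from the same stretch. RMA2 (AT4G28270, 14007475 to 14009287, minus strand), which encodes a membrane-anchored RING ubiquitin ligase, starts 5358 bases before FLOE1. LLG3 (AT4G28280, 14010685 to 14012700, plus strand), of the LORELEI-like family of GPI-anchored proteins, lies between RMA2 and FLOE1 and its start is 1397 bases from that of RMA2. All 1428 exon bases of AT4G28290 fall inside exons of LLG3 on the other strand, which is 70.8% of the exon bases of LLG3. The sources used here do not give the strand setting or annotation of the authors' counting, so reads of AT4G28290 and LLG3 may not be separate.

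The stretches before FLOE1, AT4G28290 and RMA2 are shown because these are the genes lower in ΔDS in all 3 states. Each is 300 bases long, read 5′ to 3′ on the strand of the gene from the TAIR10.1 reference, ends before the gene's start and overlaps no annotated gene. That of AT4G28290 begins past the end of LLG3. Capitals mark ACGTG on either strand, the core of abscisic acid response elements and of the G-box.
FLOE1, chr4:14014346-14014645, plus strand: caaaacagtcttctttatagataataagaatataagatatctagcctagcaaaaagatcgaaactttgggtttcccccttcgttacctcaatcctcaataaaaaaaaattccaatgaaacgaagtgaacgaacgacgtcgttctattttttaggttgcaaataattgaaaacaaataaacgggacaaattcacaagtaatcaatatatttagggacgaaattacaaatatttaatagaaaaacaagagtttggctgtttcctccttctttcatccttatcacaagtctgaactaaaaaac
AT4G28290, chr4:14012701-14013000, minus strand: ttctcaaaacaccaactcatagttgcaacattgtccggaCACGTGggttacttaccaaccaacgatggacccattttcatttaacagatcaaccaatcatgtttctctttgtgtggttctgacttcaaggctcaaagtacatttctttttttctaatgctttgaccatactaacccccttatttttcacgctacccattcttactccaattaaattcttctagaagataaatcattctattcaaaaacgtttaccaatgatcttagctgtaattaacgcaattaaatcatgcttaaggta
RMA2, chr4:14009288-14009587, minus strand: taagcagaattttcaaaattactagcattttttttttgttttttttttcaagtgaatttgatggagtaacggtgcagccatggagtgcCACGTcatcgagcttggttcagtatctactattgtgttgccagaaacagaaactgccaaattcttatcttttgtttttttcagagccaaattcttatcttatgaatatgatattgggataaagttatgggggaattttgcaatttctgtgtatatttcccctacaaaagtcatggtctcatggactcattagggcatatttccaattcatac

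ACGTG occurred 0 times in the FLOE1 stretch and 1 time in that of RMA2. In that of AT4G28290 it occurred 2 times, in an overlapping pair that makes up CACGTG. The core of the RY element of seed genes, CATGCA, was searched on both strands and occurred in none of these stretches. Of 27443 protein-coding genes 25.6% had ACGTG and 10.3% had CATGCA in the 300 bases before their start. Of the 34 described genes 5 (14.7%) had ACGTG, and AT4G28240 had the most, with 5 occurrences. These are descriptions of letters in a window only.

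Over the whole range, calls were fewest in dry and most numerous in imbibed seeds, as they were over the whole tables. In dry seeds 4 of 29 tested described genes were called, 3 lower and 1 higher, beside 6.06% of all 16597 tested genes (3.10% lower and 2.96% higher). In imbibed seeds 18 of 33 were called, 9 lower and 9 higher, beside 40.8% of 19430 (19.5% lower and 21.3% higher). In salt seeds 6 of 31 were called, 4 lower and 2 higher, beside 14.0% of 18518 (6.99% lower and 6.98% higher). Without FLOE1 the shares were 10.7% in dry seeds, 53.1% in imbibed seeds and 16.7% under salt, which rest on 3, 17 and 5 genes. The median log2 fold change of the described genes was -0.07 in dry seeds, -0.07 in imbibed seeds and 0.02 under salt, beside 0.00, 0.02 and 0.00 over all tested genes. Scaling both genotypes to equal summed counts subtracts shifts of -0.08, -0.19 and -0.16 from the dry, imbibed and salt log2 fold changes. With it, 12 were higher and 6 lower in imbibed seeds and 6 higher and 3 lower in salt seeds. These shifts move every gene of a state alike. The share of all genes called under this scaling was not computed, so these counts have no background beside them.

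FLOE1 itself fell in ΔDS in every state, and this is the base against which its neighbours are read. Its implied means in +WT and ΔDS were 8288 and 180 normalised counts in dry seeds, 13978 and 293 in imbibed seeds and 13777 and 431 under salt. The log2 fold changes in the authors' deposited table were -5.53 ± 0.090 (SE) in dry seeds, -5.58 ± 0.16 in imbibed seeds and -5.00 ± 0.067 under salt. The adjusted p was 3.70e-263 in imbibed seeds and was written as 0 in the other tables by the authors. The decrease was smaller in salt than in the other states by a z test of the difference, adjusted over all genes. Salt differed from imbibed seeds by 0.58 ± 0.17 (SE, adjusted p = 0.0180) and from dry seeds by 0.53 ± 0.11 (adjusted p = 1.53e-04). FLOE1 had the highest mean of the 61 genes in imbibed and salt seeds, and AT4G28260 had the highest in dry seeds, at 6205 normalised counts in the authors' deposited table. The implied ΔDS mean was 2.17% of the +WT mean in dry seeds, 2.09% in imbibed seeds and 3.13% under salt. How much of the decrease came from fewer reads counted over the shortened copy was not tested.

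The nearest upstream gene, AT4G28290, was at a low level and lower in ΔDS in all 3 states. Implied means in +WT and ΔDS were 15.6 and 0.336 normalised counts in dry seeds, 35.0 and 7.78 in imbibed seeds and 24.0 and 0.167 under salt. The authors' deposited table gave it log2 fold changes of -2.17 ± 0.53 in imbibed (adjusted p = 3.57e-04), -5.54 ± 1.37 in dry (adjusted p = 0.00213) and -7.17 ± 1.32 in salt seeds (adjusted p = 2.18e-06). In dry and salt seeds the implied ΔDS mean was under 1 normalised count, which is 3 counts over the group, so these fitted fold changes give the direction and not the size. In imbibed seeds the decrease was 4.50-fold.

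LLG3 was at a lower level still. Its implied means in +WT and ΔDS were 11.7 and 1.49 normalised counts in imbibed and 12.4 and 1.57 in salt seeds. It was called lower in both, at -2.97 ± 1.01 (adjusted p = 0.0113) in imbibed and -2.98 ± 1.01 (adjusted p = 0.0261) in salt seeds in the authors' deposited table. In dry seeds LLG3 had a mean of 1.20 in the authors' deposited table and no adjusted p. It stayed under the mean of 10 in every table and is given because it lies next to FLOE1. Among its relatives elsewhere in the genome, LRE, LLG1 and LLG2, none was called lower where it was tested. The authors' deposited table had 1 of the 3 higher, LRE (AT4G26466) in salt seeds, at 1.42 ± 0.35.

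RMA2 was abundant and fell by a small amount in every state. Implied means in +WT and ΔDS were 1011 and 792 normalised counts in dry seeds, 1165 and 781 in imbibed seeds and 1436 and 1095 under salt. In the authors' deposited table its log2 fold changes were -0.35 ± 0.090 in dry (adjusted p = 0.00323), -0.58 ± 0.18 in imbibed (adjusted p = 0.00665) and -0.39 ± 0.078 in salt seeds (adjusted p = 1.42e-05). Its effects in the 3 states did not differ past the test. The 95% interval of the difference was -0.63 to 0.18 for imbibed minus dry seeds. For salt minus imbibed it was -0.21 to 0.58, and for salt minus dry -0.27 to 0.19. With both genotypes scaled to equal summed counts RMA2 in imbibed seeds was at -0.39 and no longer passed (adjusted p = 0.0727). Its relatives RMA1 and RMA3 lie outside the range. RMA1 (AT4G03510) passed in no state, with -0.09, -0.05 and -0.08 in dry, imbibed and salt seeds in the authors' deposited table. RMA3 (AT4G27470) fell in imbibed seeds, at -0.81 ± 0.20, and was at -0.22 in dry and -0.24 in salt seeds in the authors' deposited table.

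**Figure D2:**
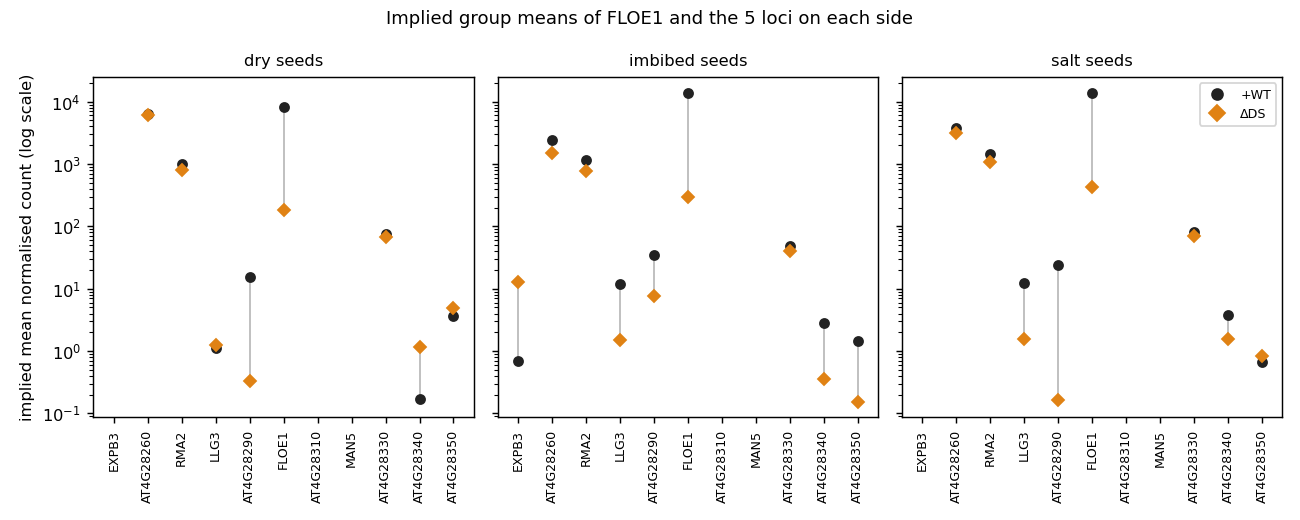
Implied mean normalised count (y axis, log scale) of FLOE1 and the 5 loci on each side in chromosome order (x axis), in +WT (circles) and ΔDS (diamonds), in each seed state. A locus listed at 0 has no point, and grey lines join the genotypes. FLOE1 falls from 8288 to 180 in dry seeds, while AT4G28330 on its downstream side is at 74.1 and 68.6.

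AT4G28260 (14004401 to 14006989, plus strand), annotated as an acyl-UDP-N-acetylglucosamine O-acyltransferase, ends 7.66 kb before FLOE1 and was lower in imbibed and salt seeds. Implied means in +WT and ΔDS were 6347 and 6064 normalised counts in dry seeds, 2402 and 1513 in imbibed seeds and 3770 and 3162 under salt. The authors' deposited table gave -0.67 ± 0.16 in imbibed (adjusted p = 3.96e-04) and -0.25 ± 0.059 in salt seeds (adjusted p = 3.11e-04). In dry seeds its value was -0.07 ± 0.047 (adjusted p = 0.556) in the authors' deposited table, with a 95% interval of -0.16 to 0.03, and the imbibed effect differed from it by -0.60 ± 0.17 (adjusted p = 0.00418). Scaled to equal summed counts, the salt value was -0.10 and did not pass (adjusted p = 0.255).

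The beta-expansin gene EXPB3 (AT4G28250), whose family loosens cell walls, is the fifth locus upstream and lies 12.5 kb away. It was listed at 0 in dry and salt seeds and was higher in ΔDS in imbibed seeds (4.20 ± 1.24, adjusted p = 0.00319) in the authors' deposited table. Its implied means were 0.698 in +WT and 12.8 in ΔDS, so the size of this change is uncertain. The direction is opposite to that of FLOE1. Of its 5 relatives elsewhere 1 was tested, EXPB1 (AT2G20750), which rose in imbibed seeds (1.57 ± 0.33) in the authors' deposited table.

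Downstream of FLOE1 no gene under 10 kb away was called in any state, where 1 was tested in dry seeds and 2 in each of the other states. AT4G28310, annotated as a microtubule-associated protein, begins 245 bases past the end of FLOE1, and MAN5 (AT4G28320), an endo-beta-mannanase, comes next. Both were listed at 0 in all 3 tables. AT4G28330 and AT4G28340, both annotated as pyrroline-5-carboxylate reductases, lie 5.18 and 7.44 kb away. AT4G28330 had implied means in +WT and ΔDS of 74.1 and 68.6 normalised counts in dry seeds, 49.2 and 40.7 in imbibed seeds and 81.8 and 71.1 under salt. It passed in no state, with -0.11 ± 0.25, -0.28 ± 0.34 and -0.20 ± 0.28 in the authors' deposited table. Its 95% intervals were -0.60 to 0.38, -0.95 to 0.40 and -0.75 to 0.34, which include decreases as large as those of RMA2. AT4G28340 and the lectin receptor kinase gene AT4G28350 (9.48 kb) had means of at most 4.27 normalised counts in the authors' deposited table. AT4G28350 was not tested in any state and AT4G28340 not in dry seeds, and AT4G28340 did not pass in the other states.

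An unbroken run of calls was found on the upstream side of FLOE1 and none on the downstream side. Going upstream from FLOE1 over tested genes, 2 further genes were called in a row in dry seeds (AT4G28290 and RMA2, with untested LLG3 passed over), 6 in imbibed seeds and 4 in salt seeds. Going downstream, 0 were called in a row in any state. Counting only genes that moved in the direction of FLOE1, the run held 3 genes with FLOE1 in dry seeds, 5 in imbibed seeds and 5 under salt. It ended at RMA2 in dry seeds, 7.17 kb before the start of FLOE1, and at AT4G28260 in imbibed and salt seeds, 10.2 kb before it. With a change of at least 2-fold as well, the run was 2 genes in dry and 3 in imbibed and salt seeds and ended within 3.57 kb and 3.96 kb. These imbibed and salt runs count LLG3, which is under the mean of 10 and whose reads may not be separate from those of AT4G28290. Genes under that mean in every table were also left out, with calls taken in either direction. The run with FLOE1 then went from 7 to 5 genes for imbibed seeds and from 5 to 4 under salt. For dry seeds it stayed at 3. The reach depended on the settings. Where the deposited statistics were read against a t distribution with 4 degrees of freedom, the run was 1 in dry seeds, 0 in imbibed seeds and 1 in salt seeds, so no neighbour was called. In imbibed seeds that setting did not call FLOE1 either, so it cannot show how far the effect reaches there. With adjustment across every gene that has a p, LLG3 was tested in dry seeds and the dry run ended at AT4G28290, with 2 genes. Scaled to equal summed counts, the run over calls in either direction was 3 genes in imbibed seeds, where RMA2 did not pass, and 4 in salt seeds, where AT4G28260 did not. Calls of at least 2-fold made up 0.699% of all tested genes in dry seeds, 11.1% in imbibed seeds and 1.88% under salt.

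**Figure D3:**
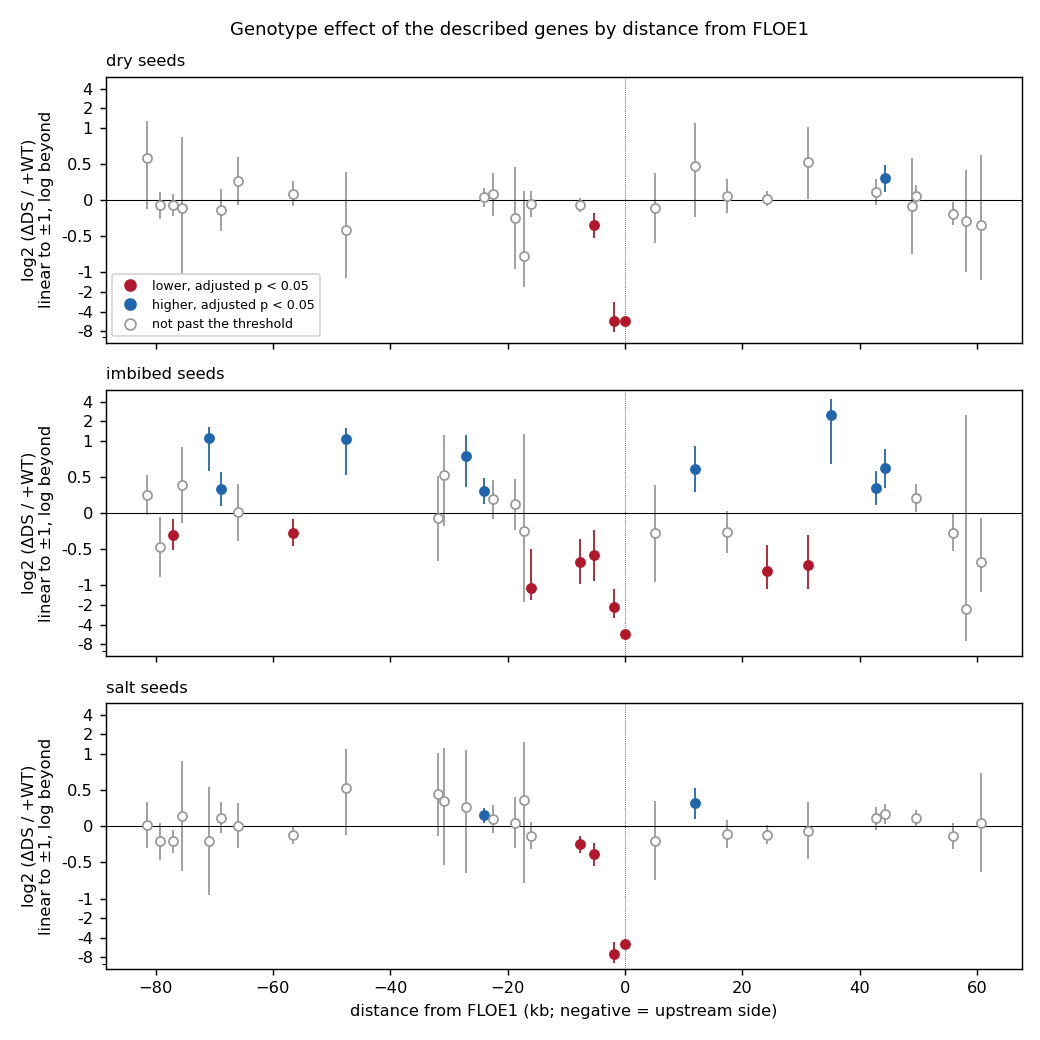
Log2 fold change of ΔDS over +WT (y axis, linear between -1 and 1 and logarithmic beyond) for described genes with an adjusted p, by distance from FLOE1 (x axis, kb, negative upstream), in each seed state. Bars are 95% intervals from the deposited SE, and filled points are calls. In dry and salt seeds the lower calls sit at FLOE1 and within 7.66 kb upstream of it. In imbibed seeds lower and higher calls together lie between 77.1 kb upstream and 44.3 kb downstream.

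By distance, the counts are read beside the shares of all tested genes, 6.06%, 40.8% and 14.0% for the dry, imbibed and salt tables. Of the genes under 10 kb upstream, 2 of 3 tested were called in dry seeds, 4 of 4 in imbibed seeds and 4 of 4 under salt, all of them lower. The 4 include AT4G28290 and the low LLG3, whose reads may not be separate. Under 10 kb downstream the counts were 0 of 1, 0 of 2 and 0 of 2. Between 10 and 40 kb on both sides, 0 of 9 tested genes were called in dry, 8 of 15 in imbibed (3 lower and 5 higher) and 2 of 12 in salt seeds (both higher). Between 40 and 80 kb, 1 of 14 was called in dry (higher), 7 of 16 in imbibed (2 lower and 5 higher) and 0 of 14 in salt seeds. Classes this small are descriptions, and neighbouring genes are not replicates.

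**Figure D4:**
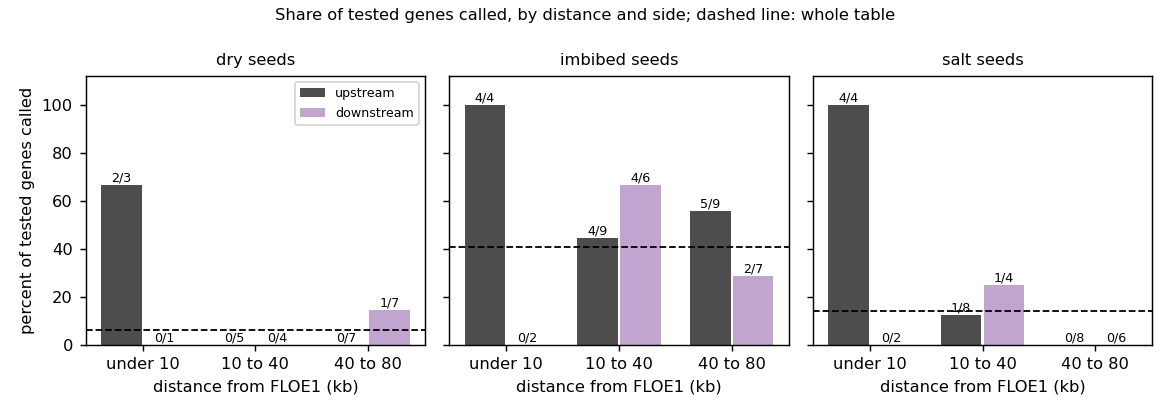
Percent of tested genes called (y axis) by distance from FLOE1 (x axis, kb) upstream (dark bars) and downstream (light bars), in each seed state, over all rows of the range other than FLOE1. Numbers give called over tested genes, and the dashed line is the share over the whole table. Under 10 kb upstream the bars stand at 2 of 3, 4 of 4 and 4 of 4, and at 0 downstream.

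The blocks of loci on either side of the range had calls at shares closer to the whole table in dry seeds. From AT4G27510 to AT4G28000, 3 of 44 tested genes were called in dry (6.82%), 16 of 50 in imbibed (32.0%) and 8 of 48 in salt seeds (16.7%). From AT4G28510 to AT4G29000, the counts were 2 of 32 (6.25%), 20 of 39 (51.3%) and 5 of 35 (14.3%). All rows of the range itself gave 4 of 29 (13.8%), 20 of 39 (51.3%) and 7 of 34 (20.6%). These counts include FLOE1, which the other blocks do not hold, and without it 3 of 28 described genes were called in dry seeds (10.7%). The difference between these blocks was not tested.

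Among the farther upstream genes, called changes were mostly of imbibed seeds, as over all tested genes, where 40.8% were called in imbibed, 6.06% in dry and 14.0% in salt seeds. AT4G28240, of a wound-responsive family, lies 16.0 kb upstream and had implied means in +WT and ΔDS of 783 and 371 normalised counts in imbibed seeds, 934 and 894 in dry and 1200 and 1098 in salt seeds. It fell by 1.08 ± 0.30 in imbibed seeds (adjusted p = 0.00162) in the authors' deposited table. That effect differed from dry seeds (-1.01 ± 0.31, adjusted p = 0.00820) and from salt seeds (salt minus imbibed 0.95 ± 0.31, adjusted p = 0.0349). AT4G28240 overlaps AT4G28230 on the same strand, which passed in no state.

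Further out, 3 upstream genes rose at least 1.5-fold in imbibed seeds. The share of all genes at this fold was not computed. Calls of at least 2-fold in either direction made up 11.1% of all tested genes in imbibed seeds. ULT1 (AT4G28190), a regulator of meristem and flower development, lies 27.1 kb upstream and had implied means of 67.3 in +WT and 117 in ΔDS. Its log2 fold change was 0.79 ± 0.22 in imbibed seeds (adjusted p = 0.00188) and 0.26 ± 0.46 in salt seeds in the authors' deposited table. The uncharacterized gene AT4G28100 (47.6 kb) had implied means of 120 and 250 normalised counts, with 1.06 ± 0.27 (adjusted p = 5.01e-04) in the authors' deposited table. The tetraspanin gene TET7 (AT4G28050, 70.9 kb) had implied means of 110 and 237 normalised counts, with 1.11 ± 0.27 (adjusted p = 3.89e-04) in the authors' deposited table. TET7 and ULT1 had no adjusted p in dry seeds, where their means were 1.37 and 2.68 in the authors' deposited table. AT4G28100 was at -0.42 ± 0.41 in dry seeds in the authors' deposited table, and the imbibed effect differed from it by 1.49 ± 0.49 (adjusted p = 0.0148).

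The other upstream calls were smaller than 1.5-fold. AT4G28060, a cytochrome c oxidase subunit, was higher in imbibed seeds (0.34 ± 0.12) and AT4G28080, a tetratricopeptide repeat protein gene, was lower (-0.27 ± 0.094) in the authors' deposited table. Their imbibed effects differed from the dry ones by 0.48 ± 0.19 (adjusted p = 0.0442) and -0.36 ± 0.13 (adjusted p = 0.0267). AT4G28025 and AT4G28200, the second a U3 small nucleolar RNA-associated protein gene of ribosome assembly, were named after their values were seen. AT4G28025 was at -0.30 ± 0.11 (adjusted p = 0.0162) in imbibed seeds in the authors' deposited table. AT4G28200 was higher in imbibed (0.31 ± 0.090, adjusted p = 0.00313) and salt seeds (0.15 ± 0.055, adjusted p = 0.0421) in the authors' deposited table. Scaled to equal summed counts, AT4G28025 and AT4G28080 did not pass in imbibed seeds (adjusted p = 0.409 and 0.500).

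On the downstream side the nearest called gene was AT4G28360, 11.9 kb away, of the ribosomal protein L22 family. Its implied means in +WT and ΔDS were 863 and 1313 normalised counts in imbibed and 482 and 600 in salt seeds, and 29.4 and 40.7 in dry seeds. It was higher in imbibed (0.61 ± 0.16, adjusted p = 6.40e-04) and salt seeds (0.32 ± 0.11, adjusted p = 0.0257) in the authors' deposited table. AAC3 (AT4G28390), a mitochondrial ADP/ATP carrier 24.2 kb away, fell in imbibed seeds, with implied means of 1966 in +WT and 1127 in ΔDS. For AAC3 the authors' deposited table held -0.80 ± 0.18 (adjusted p = 1.07e-04) in imbibed, 0.02 ± 0.053 in dry and -0.12 ± 0.067 in salt seeds. The imbibed effect of AAC3 differed from the dry one by -0.82 ± 0.19 (adjusted p = 3.13e-04), and salt minus imbibed was 0.68 ± 0.19 (adjusted p = 0.0129). The other carriers, AAC1 (AT3G08580) and AAC2 (AT5G13490), rose in imbibed seeds, at 0.79 ± 0.16 and 0.57 ± 0.13 in the authors' deposited table. AAC1 was also higher in dry (0.33 ± 0.066, adjusted p = 4.64e-05) and salt seeds (0.36 ± 0.049, adjusted p = 2.95e-11) in the authors' deposited table, where AAC2 did not pass.

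Another 3 downstream genes passed a 1.5-fold change, all in imbibed seeds, the state in which 40.8% of all tested genes were called. AT4G28400, of the protein phosphatase 2C family, was lower (-0.72 ± 0.21, adjusted p = 0.00280) in imbibed seeds and at 0.53 ± 0.26 in dry seeds in the authors' deposited table, a difference of -1.25 ± 0.33 (adjusted p = 0.00193). AT4G28410, of the tyrosine transaminase family, was listed at 0 in dry and salt seeds. In imbibed seeds AT4G28410 had implied means of 3.27 in +WT and 19.0 in ΔDS, with 2.54 ± 0.95 (adjusted p = 0.0229) in the authors' deposited table. AT4G28450, annotated as WD repeat and SOF domain-containing protein 1, lies 44.3 kb away and was the farthest downstream call. Implied means of AT4G28450 in +WT and ΔDS were 595 and 731 normalised counts in dry and 1825 and 2806 in imbibed seeds. AT4G28450 was the 1 gene called higher in dry seeds (0.30 ± 0.094, adjusted p = 0.0306), and stood at 0.62 ± 0.14 in imbibed and 0.17 ± 0.068 in salt seeds in the authors' deposited table. Its salt effect was below its imbibed one by -0.45 ± 0.15 (adjusted p = 0.0417). AT4G28440, an OB-fold protein gene named after its values were seen, was at 0.35 ± 0.12 (adjusted p = 0.0147) in imbibed seeds in the authors' deposited table.

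**Figure D5:**
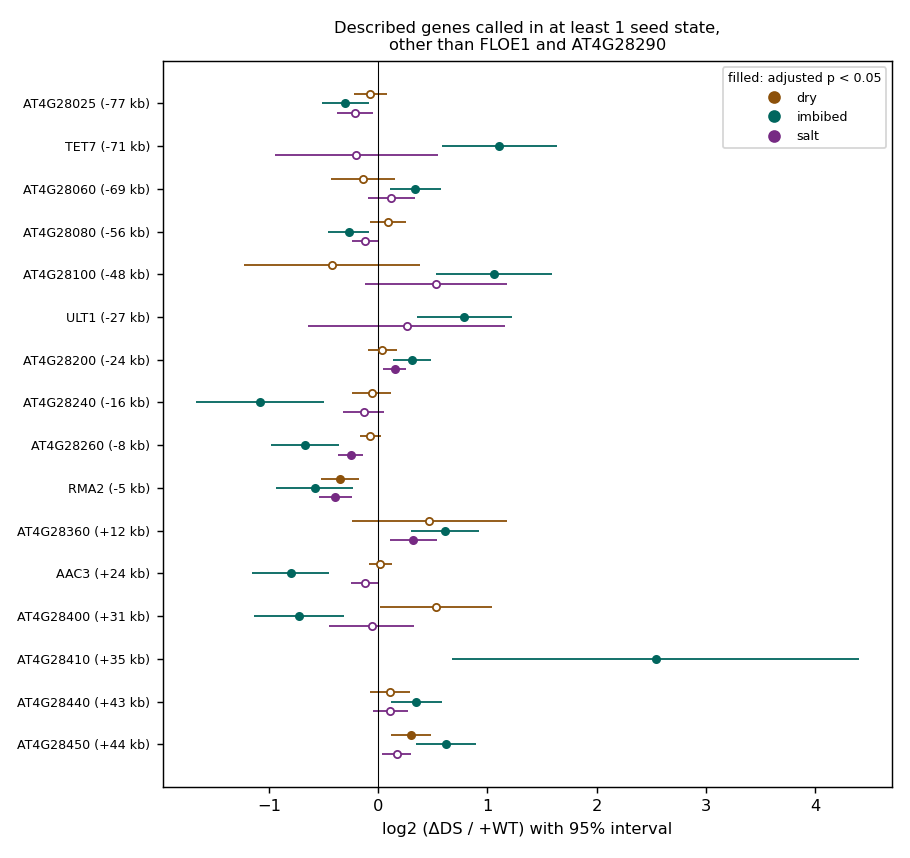
Log2 fold change of ΔDS over +WT (x axis) with 95% intervals for the 16 described genes called in at least 1 state other than FLOE1 and AT4G28290, in chromosome order (y axis, with distance from FLOE1 in kb), in dry, imbibed and salt seeds. Filled points are calls, and a gene without an adjusted p in a state has no point there. RMA2 is the gene of this set called in all 3 states.

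Of the 34 described genes, 3 were called in every state, 4 in 2 states, 11 in 1 state and 16 in none, 4 of which lacked an adjusted p in at least 1 state. These are 8.82%, 11.8%, 32.4% and 47.1%, beside 1.82%, 11.8%, 33.9% and 52.5% of all 17982 genes with a mean of at least 10 in any table. The 3 called in every state include FLOE1 itself, around which the range was taken, so part of the 8.82% was set by that choice. The 11 called once were all called in imbibed seeds, as were 88.7% of all genes called once. Among those that passed in no state were EMB1923 (AT4G28210), NDB1 (AT4G28220), an external NAD(P)H dehydrogenase of mitochondria, RPN1B (AT4G28470), a proteasome subunit, and HAE (AT4G28490), the receptor kinase of organ shedding. RPN1B had means of 1002, 2628 and 2136 normalised counts in dry, imbibed and salt seeds and log2 fold changes of 0.05 ± 0.079, 0.21 ± 0.10 and 0.11 ± 0.061 in the authors' deposited table. Between states, 7 of 28 described genes tested in both tables differed between imbibed and dry seeds, beside 25.0% of all 16228. For salt against imbibed seeds 5 of 31 differed, beside 9.16% of 18219, and for salt against dry seeds 1 of 27 differed, FLOE1 itself, beside 5.83% of 16281. Each seed state enters 2 of these comparisons, so they are not independent.

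Markers of seed tissues were counted beside these results, with the shares of all genes given above as background. In imbibed seeds 3 of 5 tested embryo epidermis and meristem markers were higher, and the summed implied mean of the 6 was 3574 in +WT and 6174 in ΔDS. Of 2 tested endosperm markers 1 was lower and 1 higher, and the list summed to 665810 and 301921, nearly all of it EPR1 (AT2G27380). Of 3 tested seed coat markers 2 were higher, with sums of 398 and 580, and 2 of the 7 were at 0. In dry seeds no embryo or seed coat marker passed, and of 2 tested endosperm markers 1 was lower (EPR1) and 1 higher (AGL62, AT5G60440), with sums of 1112672 and 871929. In salt seeds the embryo sums were 1933 and 1916, the seed coat sums 228 and 272 and the endosperm sums 813584 and 581176, with 1 endosperm marker lower and 1 higher. The part of tissue makeup in these results was not tested, and in whole seeds fewer cells of a type and less RNA per cell cannot be told apart. Mean normalised counts summed to 26367661, 24526188 and 26080227 in the dry, imbibed and salt tables of the authors.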

How the data were processed

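Seeds of 6 groups with 3 replicates each (18 samples) were compared by genotype within dry, imbibed and salt seeds. HISAT2 and DESeq2, without versions, and the TAIR10 build are named in the submitters' processing notes. The counter, the strand setting and the annotation were not given in the sources used here. The authors deposited 1 table per state, each over 33602 genes. Per the file headers these hold a signal column (mean normalised count over libraries), an SE beside each log2 fold change, the Wald statistic as a score, and the p-value with its adjusted p-value. Values per library are not in them, so the count test planned for that case was not run and the authors' adjusted p was used at 0.05.

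The members and lists were chosen with earlier results of these data known. Named genes were FLOE1, the 5 loci on each side, members called with at least a 1.5-fold change or in every state, the member with the highest mean, and members that differed between states. Differences between states were tested with a z test on the deposited fold changes, with Benjamini-Hochberg adjustment over all genes tested in both tables, using Python 3.11.15, pandas 2.3.3, numpy 2.4.6 and scipy 1.17.1. Intervals are 1.96 SE on each side and cover the error the authors' model gives. Gene positions, strands, products and sequences came from RefSeq's TAIR10.1, in which 32835 identifiers matched a nuclear locus, while the submitters' processing notes name TAIR10 and the files hold no coordinates. The steps were tested on simulated data drawn with the tables' own SE. A log2 change of 0.5 was recovered for 50.0%, 32.0% and 56.0% of changed genes in dry, imbibed and salt seeds. For differences between states of that size, recovery was 14.5% (imbibed minus dry), 17.5% (salt minus imbibed) and 31.5% (salt minus dry). False calls made up 2.78% to 10.2% of calls over all settings, so an absent call does not show an absent effect. The alternatives tried were adjustment across every gene that has a p, t distributions, median centring, scaling to equal summed counts, minimum means, a 2-fold change and an adjusted p of 0.01.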

Additional observations from a re-analysis of the deposited data

Results flagged for a closer look

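The genotype effect of 13 gene and state pairs differed between seed states by the z test of the difference, adjusted over all genes tested in both tables. For imbibed minus dry seeds these were AT4G28060 (0.48), AT4G28080 (-0.36), AT4G28100 (1.49), AT4G28240 (-1.01), AT4G28260 (-0.60), AT4G28390 (AAC3, -0.82) and AT4G28400 (-1.25). For salt minus imbibed seeds they were AT4G28240 (0.95), AT4G28290 (-5.00), AT4G28300 (FLOE1, 0.58), AT4G28390 (0.68) and AT4G28450 (-0.45). For salt minus dry seeds it was FLOE1 (0.53). In the same order, 7 of 28, 5 of 31 and 1 of 27 described genes tested in both states differed. Shares over all genes were 25.0%, 9.16% and 5.83%, so the imbibed minus dry count, also 25.0%, is at the share of all genes. The value of AT4G28290 rests on a salt fold change whose ΔDS mean was an implied 0.167 normalised counts. Its size is therefore not measured by the fit.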

How the results depend on the processing

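No paired analysis was possible because the tables hold no value per library, and leaving out single replicates was not run for the same reason. With a t distribution of 4 degrees of freedom for the deposited statistics, 1 gene was called in dry seeds, 0 in imbibed seeds and 1 under salt, and the run around FLOE1 held 1, 0 and 1. Under that reference FLOE1 itself was not called in imbibed seeds, so the run of 0 there does not measure a reach. At an unadjusted p below 0.05 that reference passed 4 of 29, 17 of 33 and 5 of 31 described genes. For differences between states, 8 degrees of freedom left 0 calls for each pair. Unadjusted, p was below 0.05 for 8 of 28 genes in imbibed minus dry, 7 of 31 in salt minus imbibed and 2 of 27 in salt minus dry. Shares of all genes at these unadjusted thresholds were not computed, so the counts have no background beside them. With a change of at least 2-fold, 2, 6 and 2 described genes were called in dry, imbibed and salt seeds. Over all rows with an adjusted p, which include LLG3, these were 2, 8 and 3, the run held 3 in imbibed and in salt seeds, and the farthest calls were 1.95 kb upstream in dry and salt, 70.9 kb upstream and 35.1 kb downstream in imbibed seeds. At an adjusted p below 0.01 the run was 2 in imbibed and 2 in salt seeds, and the farthest upstream calls were at 70.9 kb and 7.66 kb. Scaled to equal summed counts, the run was 3 in imbibed seeds, the farthest upstream calls were at 81.4 kb in imbibed and 68.9 kb in salt seeds, and the farthest downstream ones at 49.6 kb in both. Median centring moved the farthest upstream call in imbibed seeds to 79.2 kb, adjustment over all genes with a p moved that of salt seeds to 7.66 kb, and a mean of at least 50 cut the run in salt seeds to 3. The causes were not tested. Of 31 log2 fold changes of called genes within a state, 31 kept direction and call under median centring and 27 under scaling. For imbibed minus dry seeds, median centring left 6 differences called in place of 7.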

Other observations

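The levels of some genes in the range differed widely between seed states in the same genotype. The tables were normalised separately, so these are values side by side with no test. In +WT seeds the implied mean of the ribosomal protein gene AT4G28360 was 29.4 normalised counts in dry seeds, 863 in imbibed seeds and 482 under salt. TET7 (AT4G28050) stood at 0.641, 110 and 39.4 in the same order and ULT1 (AT4G28190) at 3.21, 67.3 and 22.5. The uncharacterized gene AT4G28460 was at 38.2 in dry seeds, 0.630 in imbibed seeds and 0.721 under salt, and DMP7 (AT4G28485) was at 46.1, 3.87 and 0.384. AT4G28260 was at 6347, 2402 and 3770. Values under 1 normalised count have no order. These genes were chosen after their values were seen.

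Per kb of exon, FLOE1 in +WT seeds had 3513, 5926 and 5840 implied normalised counts in dry, imbibed and salt seeds. AT4G28260 had 2617, 991 and 1554, and RMA2 had 834, 961 and 1185. AT4G28290 had 10.9, 24.5 and 16.8 on the same scale.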
